A study of Mus musculus with 3 samples.

Results

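The carbonic anhydrases described here are 8 mouse genes, *Car2*, *Car3*, *Car4*, *Car5b*, *Car8*, *Car9*, *Car12*, and *Car13*, out of 32285 genes counted in single cells of the fracture callus. They were matched by symbol, and all 8 were found. They were chosen by their UMI counts in these same libraries, since *Car3*, *Car8*, and *Car12* had led different clusters of skeletal cells, so the levels by class are descriptions and none of them was tested. By class of cells, *Car8*, *Car12*, and *Car9* were highest in cartilage cells high for *Cnmd*, *Car3* in osteoblasts high for *Ifitm5*, and *Car2* in erythroid barcodes. *Car5b* and *Car13* were low in all classes and *Car4* was nearly undetected. Callus of C57BL/6 mice with a femoral fracture was sampled at day 7, day 10, and day 14, with 1 droplet library per day and no replicates. The study's methods describe isoflurane anesthesia, buprenorphine against pain, and a pin in the marrow cavity for fractures. No other treatment of these mice is given in the sources used here. The callus was freed of muscle and marrow and digested with collagenase, and live cells without CD45, CD31, or TER119 at the surface were sorted. The age of the mice and the number pooled per library are not given in the sources used here, and the study's methods state for all its experiments that male and female mice were used in similar numbers.

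Carbonic anhydrases catalyze the interconversion of carbon dioxide and water with bicarbonate and a proton, and so serve pH balance and gas transport. The members differ in where they act. CAR2, CAR3, and CAR13 are cytosolic, CAR5B is mitochondrial, CAR4 is anchored at the outer membrane surface, CAR9 and CAR12 span the membrane with an extracellular catalytic domain, and CAR8 is a carbonic anhydrase-related protein without catalytic activity that is known for binding the inositol trisphosphate receptor. In bone, CAR2 is best known from osteoclasts, which acidify the resorption pit, and in blood it is an abundant enzyme of red cells.

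Classes of cells were built from markers. Among cells within the study's limits and with 0 unique molecular identifiers (UMIs) of *Ptprc*, the gene of CD45, a cell was assigned to the marker that was highest relative to a reference, the level exceeded by 0.5% of such cells at day 10 and day 14, if it reached 0.25 of the reference with at least 3 UMIs. The markers were *Cnmd* (chondromodulin of immature cartilage), *Col10a1* (collagen X of hypertrophic cartilage), *Ifitm5* (osteoblasts that mineralize), *Aspn* (asporin of fibrous and periosteal tissue), and *Rgs5* (pericytes). At day 10 the classes held 2586, 339, 93, 919, and 63 cells in that order, and at day 14 they held 1469, 746, 318, 2308, and 181 cells. At day 7 they held 50, 2, 2, 11, and 0 cells, so only the *Cnmd* class has levels of use at that day. These classes are ranges of a marker and not cell types. At day 10, 559 cells lay between 0.2 and 0.3 of the *Cnmd* reference and 37 cells between the same fractions of the *Ifitm5* reference. The other classes' markers were low in each class, with a median over cells of 0 *Ifitm5* UMIs and 0.56 *Col10a1* UMIs per 10000 in the *Cnmd* class at day 10, and of 0 *Cnmd* UMIs and 0.39 *Col10a1* UMIs per 10000 in the *Ifitm5* class. The *Aspn* marker had a median of 7.44 UMIs per 10000 in the *Rgs5* class at day 10. At day 10 and day 14 all 5 chondrocyte markers were detected in the *Cnmd* class, all 6 osteoblast markers in the *Ifitm5* class, and all 5 pericyte markers in the *Rgs5* class. The 6 osteoblast markers were also detected in the *Cnmd*, *Col10a1*, and *Aspn* classes, so detection alone does not set the *Ifitm5* class apart. Of these markers *Ibsp* had 62452.6 CPM in the *Ifitm5* class and 25882.5 CPM in the *Col10a1* class at day 10. Summed over 5 markers, the chondrocyte level was 56366 CPM in the *Cnmd* class at day 10 and 5706 CPM in the *Ifitm5* class, and the osteoblast level, summed over 6 markers with *Ifitm5* itself among them, was 5139 and 77211 CPM. CPM is the sum of a gene's UMIs in a class of 1 library, given per 1000000 UMIs of that class.

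The libraries differed in make-up. The day 7, day 10, and day 14 libraries had 7017, 6593, and 9853 cells within the limits, with medians of 5056, 17370, and 15802 UMIs. *Ptprc* was found in 93.6% of the day 7 cells against 0.0910% at day 10 and 1.76% at day 14, although the cells had been sorted against CD45. Barcodes shared between libraries numbered 29 to 42 per pair. Erythroid barcodes, with more than 5% hemoglobin UMIs and 0 *Ptprc* UMIs, were 451 in the day 7 library and 9 and 7 in the later ones. All intervals are 95% intervals that cover counting error only, since no animals can be compared.

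The 8 genes lie in 6 places of the genome (GRCm38, GENCODE M21). *Car13* (ENSMUSG00000027555; chr3:14641727-14663002, plus strand), *Car1* (chr3:14766216-14808368, minus strand), *Car3* (ENSMUSG00000027559; chr3:14863512-14872523, plus strand), and *Car2* (ENSMUSG00000027562; chr3:14886273-14900770, plus strand) are neighbors within 259 kb of chromosome 3. *Car1*, the other red cell enzyme of the family, is not among the 8. *Car8* (ENSMUSG00000041261) covers chr4:8143362-8239041 on the minus strand and *Car9* (ENSMUSG00000028463) covers chr4:43506966-43513729 on the plus strand. An antisense gene, *Gm12454*, overlaps *Car9* on the minus strand, and whether the counting used strand is not given in the sources used here. *Car12* (ENSMUSG00000032373) is at chr9:66713686-66766845 on the plus strand, *Car4* (ENSMUSG00000000805) at chr11:84957786-84966044 on the plus strand, and *Car5b* (ENSMUSG00000031373) at chrX:163976822-164027997 on the minus strand.

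The promoters of *Car9* and *Car12*, the membrane-spanning pair that was highest in the same class, are shown because CA9 is a textbook target of the hypoxia-inducible factors. The sequences run from 250 bases before to 50 bases after the transcription start in RefSeq (GRCm38.p6), at chr4:43506776-43507075 and chr9:66713436-66713735, both on the plus strand. Capitals mark the core of the hypoxia response element, searched as ACGTG on both strands.

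Car9: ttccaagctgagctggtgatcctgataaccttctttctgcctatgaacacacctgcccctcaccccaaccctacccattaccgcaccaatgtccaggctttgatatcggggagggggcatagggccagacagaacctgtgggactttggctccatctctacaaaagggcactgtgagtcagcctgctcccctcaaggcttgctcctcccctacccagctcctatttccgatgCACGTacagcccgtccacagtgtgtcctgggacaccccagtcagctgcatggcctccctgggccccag
Car12: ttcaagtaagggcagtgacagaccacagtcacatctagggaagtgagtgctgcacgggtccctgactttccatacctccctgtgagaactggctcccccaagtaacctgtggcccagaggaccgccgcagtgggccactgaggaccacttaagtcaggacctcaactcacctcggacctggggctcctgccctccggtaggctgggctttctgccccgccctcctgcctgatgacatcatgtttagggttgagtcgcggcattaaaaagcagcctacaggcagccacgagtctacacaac

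The *Car9* promoter held 1 match, read on the reverse strand as CACGT and starting 18 bases before the RefSeq transcription start, and the *Car12* promoter held none. In GENCODE *Car9* begins at chr4:43506966, upstream of the RefSeq start, so by that annotation the match lies inside the gene. The letters were in 6447 of 32851 promoters of the same length (19.6%). Of the other members in that table, *Car4* held 1 match and *Car5b* held none. A match is a description of letters and says nothing of binding in these cells.

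*Car8*, the inactive relative, was the member that stood out in cartilage. In the *Cnmd* class it had 122 CPM (102 to 146; 124 UMIs) at day 7, 190 CPM (186 to 194; 9403 UMIs) at day 10, and 204 CPM (199 to 209; 6269 UMIs) at day 14. At day 10 it had 3.97 CPM in the *Col10a1* class, 29.4 CPM in the *Ifitm5* class, 6.89 CPM in the *Aspn* class, and 2.44 CPM in the *Rgs5* class. At day 14 the same classes had 10.98, 26.6, 3.79, and 7.45 CPM. In both libraries the *Cnmd* class lay far above every other class, with no overlap of the intervals, and the *Ifitm5* class came next. The log2 ratio of the *Cnmd* class over the 4 other classes together was 4.63 (4.41 to 4.86) at day 10 and 4.71 (4.56 to 4.85) at day 14, with a mean of 4.67.

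In single cells the *Cnmd* class was again highest. With every cell thinned to 2000 UMIs, *Car8* was found in 25.4% of the *Cnmd* class at day 10 (651 of 2567 cells; 23.7% to 27.1%) and in 22.3% at day 14 (20.2% to 24.6%). It was found in 3.26% and 3.48% of the *Ifitm5* class, and in 0 of 61 cells of the *Rgs5* class at day 10 and in 1.12% of them at day 14. The *Col10a1* and *Aspn* classes had 0.898% and 1.20% at day 10 and 1.09% and 0.565% at day 14, with intervals that overlapped that of the *Rgs5* class, so these 3 classes were not ordered by their shares. Without thinning the shares were 64.3% and 60.4% in the *Cnmd* class, at medians of 19074 and 21000 UMIs per cell, and 3.17% and 3.31% in the *Rgs5* class, at medians of 12529 and 9306 UMIs. The signal was spread over many cells, since 330 cells held 50% of the *Car8* UMIs of the class at day 10 and 165 cells did at day 14.

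**Figure D1:**
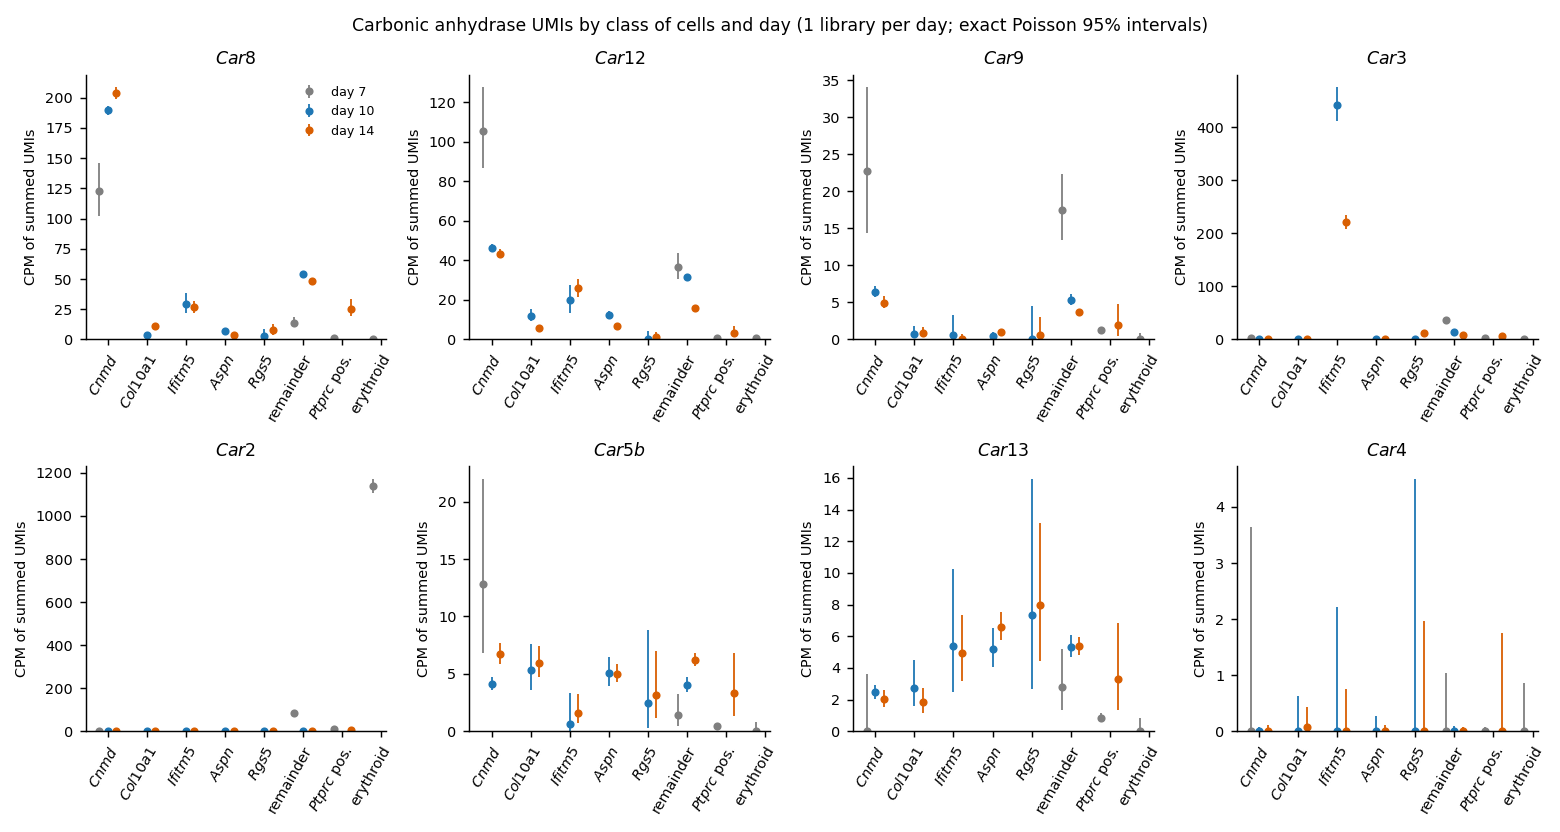
Level of each carbonic anhydrase (vertical axes, CPM of summed UMIs, scaled separately) in each class of cells with at least 50 cells (horizontal axes), colored by day; points are 1 library each and bars are exact Poisson 95% intervals. *Car8*, *Car12*, and *Car9* were highest in the *Cnmd* class, *Car3* in the *Ifitm5* class, and *Car2* in the day 7 erythroid barcodes at 1139 CPM, while *Car4* stayed near 0.

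*Car12*, a transmembrane enzyme whose catalytic domain faces the outside of the cell, was also highest in the *Cnmd* class, but less exclusively than *Car8*. It had 106 CPM (86.6 to 128; 107 UMIs) at day 7, 46.4 CPM (44.5 to 48.3) at day 10, and 43.3 CPM (41.0 to 45.7) at day 14. At day 10 the *Ifitm5*, *Aspn*, and *Col10a1* classes followed with 19.8, 12.5, and 12.1 CPM, and their intervals overlapped one another. At day 14 they had 25.8, 6.81, and 5.72 CPM. The *Rgs5* class held 0 *Car12* UMIs at day 10, which allows up to 3.66 CPM, and 2 UMIs at day 14. The log2 ratio over the other classes was 1.89 (1.71 to 2.08) at day 10 and 2.42 (2.26 to 2.58) at day 14.

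*Car9*, the hypoxia-inducible transmembrane enzyme, was found in the *Cnmd* class at 22.7 CPM (14.4 to 34.1; 23 UMIs) at day 7, 6.44 CPM (5.75 to 7.18; 319 UMIs) at day 10, and 4.97 CPM (4.21 to 5.82; 153 UMIs) at day 14. In the *Col10a1* and *Aspn* classes it had 0.691 and 0.518 CPM at day 10 and 0.928 and 0.939 CPM at day 14. The *Ifitm5* class held 1 and 0 UMIs and the *Rgs5* class 0 and 1 UMIs, and the 0 UMIs of the *Rgs5* class at day 10 allow up to 3.66 CPM. The log2 ratio over the other classes was 3.55 (2.72 to 4.51) at day 10 and 2.57 (2.08 to 3.09) at day 14. Its level in the remainder, the *Ptprc*-negative cells of no class, was close to that of the *Cnmd* class, with 17.5 CPM at day 7, 5.38 CPM at day 10, and 3.68 CPM at day 14.

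Read against all genes, 3 of the 6 members that could be compared in the *Cnmd* class (*Car8*, *Car9*, and *Car12*) were at least 2-fold higher there than in the other classes at both later days, where 3.56% of the 14272 genes with enough UMIs were. *Car3* was at least 2-fold lower, as were 14.5% of genes. *Car2* and *Car4* had fewer than the 20 UMIs asked for in each library. In the *Col10a1* class no member was 2-fold higher (6.31% of genes) and *Car3*, *Car8*, *Car9*, and *Car12* were lower (13.8%). In the *Aspn* class none was higher (11.1%) and the same 4 members were lower (6.8%), and in the *Rgs5* class none was higher (11.7%) and *Car8* and *Car12* were lower (14.9%), with *Car12* there at 0 and 2 UMIs. No direction is given for *Car9* in the *Rgs5* class, where it had 0 and 1 UMIs and 0 UMIs at day 10 allow up to 3.66 CPM against 4.69 CPM in the other classes. The 4 other classes together include the class where a member led, so a lower value elsewhere in part repeats that lead. Because *Car3*, *Car8*, and *Car12* were chosen for leading clusters, nothing is read from these counts.

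**Figure D2:**
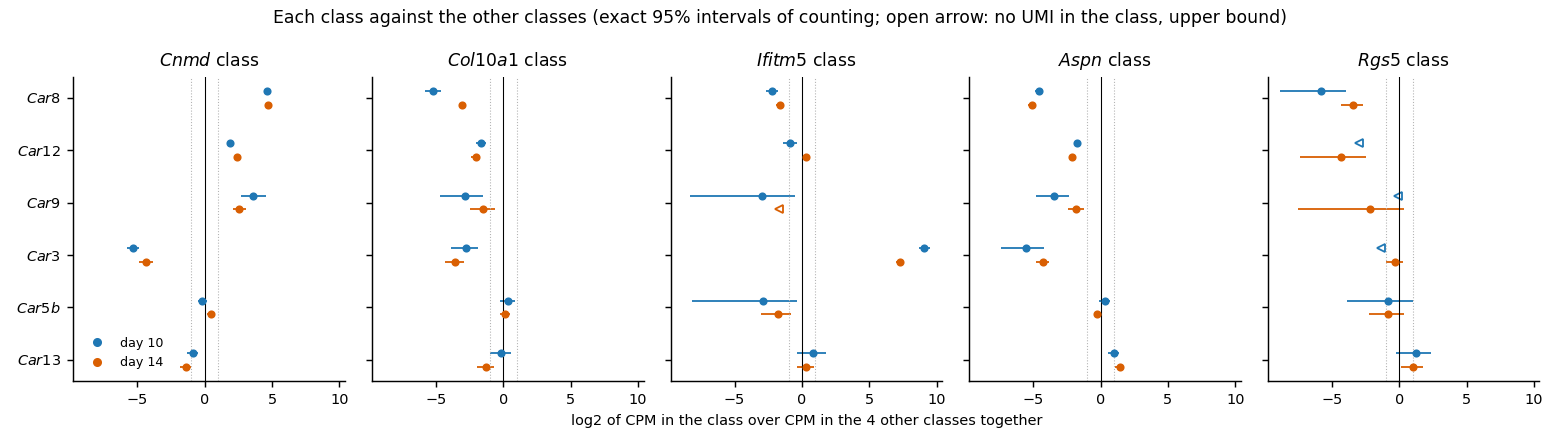
Log2 of the CPM in each class over the CPM in the 4 other classes together (horizontal axes) for 6 carbonic anhydrases at day 10 and day 14, with exact 95% intervals of counting; dotted lines mark 2-fold. *Car8* lies at 4.63 and 4.71 in the *Cnmd* class and *Car3* at 9.08 and 7.29 in the *Ifitm5* class, while *Car5b* stays within 2-fold of the other classes except in the *Ifitm5* class.

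The cartilage cells could be ordered further by *Col10a1*, which marks the passage to hypertrophy. Cells of the *Cnmd* and *Col10a1* classes were put in 5 bins of *Col10a1* UMIs per 10000, namely under 1, 1 to 10, 10 to 50, 50 to 200, and 200 and over. The *Col10a1* class begins at 184.7 UMIs per 10000, so cells below that level were all of the *Cnmd* class. Cells of the remainder, many of them with *Col10a1* UMIs, were left out. The part of these class thresholds in the courses below was not tested. *Car8* was highest at the start and lower in each following bin. At day 10 it had 199, 184, 152, 48.5, and 13.04 CPM, and at day 14 it had 224, 194, 165, 83.6, and 13.1 CPM. The intervals of the first and the last bin were 195 to 204 CPM and 10.3 to 16.3 CPM at day 10. The class marker *Cnmd* itself went from 3778 CPM in the first bin to 665 CPM in the last at day 10, and from 3528 CPM to 323 CPM at day 14.

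*Car12* had another course. At day 10 it was 37.7 CPM in the first bin, 48.8 CPM in the second, 114 CPM (101.1 to 127) in the third, 103 CPM (88.1 to 121) in the fourth, and 13.6 CPM in the last. At day 14 it was 31.5, 49.9, 95.9 (81.4 to 112), 27.6, and 6.44 CPM. In both libraries *Car12* was therefore highest in the cells with 10 to 50 *Col10a1* UMIs per 10000, which numbered 125 at day 10 and 69 at day 14, and at day 10 the fourth bin did not differ from them beyond the intervals. The fourth bin differed between days, with 103 CPM at day 10 and 27.6 CPM (21.0 to 35.5) at day 14, where 62 of 77 cells and 58 of 102 cells belonged to the *Cnmd* class. *Ihh*, the hedgehog ligand of prehypertrophic cells, had 183 CPM in the third bin and 994 CPM in the last at day 10, and *Mmp13*, a collagenase of late hypertrophy, had 78.2 CPM and 5122 CPM.

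*Car9* went from 4.85 CPM in the first bin to 10.0, 9.40, and 11.5 CPM in the next 3 bins at day 10, and had 0.858 CPM in the last. At day 14 it began at 6.28 CPM and 4.71 CPM, and the third bin held 0 UMIs, which allows up to 1.87 CPM. The order of *Car9* along *Col10a1* thus differed between the libraries, and its bins hold 0 to 168 UMIs each. *Car5b* lay between 3.01 and 5.16 CPM in the bins of day 10 and between 5.61 and 11.5 CPM in those of day 14.

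**Figure D3:**
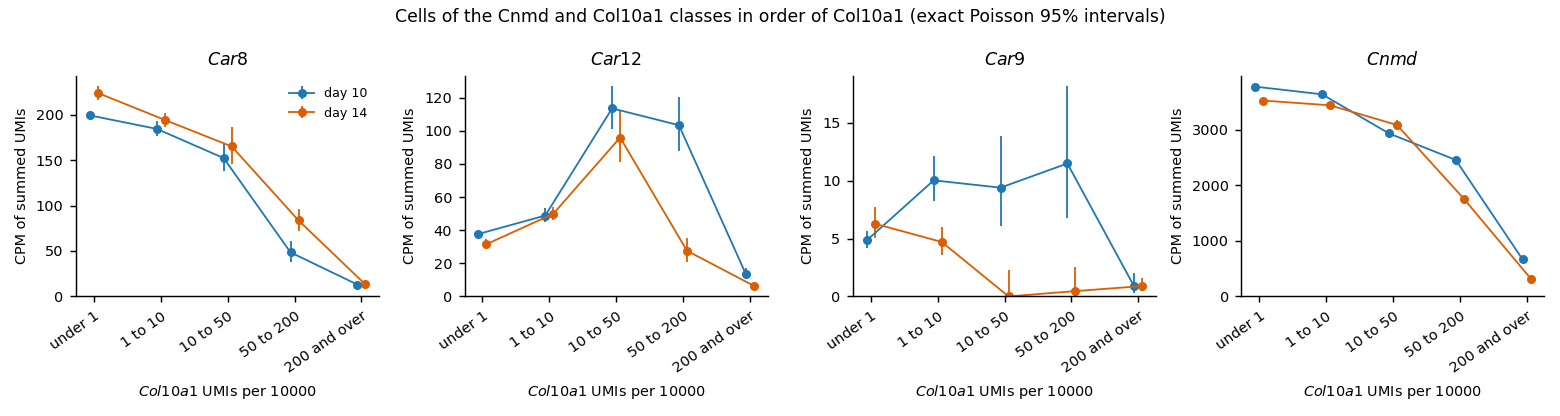
CPM of *Car8*, *Car12*, *Car9*, and the class marker *Cnmd* (vertical axes) in 5 bins of *Col10a1* UMIs per 10000 (horizontal axes) among cells of the *Cnmd* and *Col10a1* classes at day 10 and day 14; bars are exact Poisson 95% intervals. *Car8* is highest in the first bin, at 199 and 224 CPM, and *Car12* in the third, at 114 and 95.9 CPM.

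Within the *Cnmd* class, cells were also split by 1 or more UMIs of other cartilage genes after thinning to 2000 UMIs. *Car12* was higher in cells with *Chrdl2*, a secreted bone morphogenetic protein antagonist, with 123 against 37.9 CPM at day 14 (log2 1.70; 0.81 to 2.49) and 80.7 against 44.5 CPM at day 10, where the interval of the log2 ratio, -0.22 to 1.76, held 0. It was likewise 128 against 33.6 CPM in cells with and without *Ihh* at day 14 (log2 1.93; 1.29 to 2.53) and 70.1 against 43.8 CPM at day 10 (-0.03 to 1.31). *Car12* was lower in cells with *Penk*, the enkephalin precursor, at both days, with 26.1 against 48.0 CPM and 16.1 against 44.4 CPM. Among the 82 cells with *Snx22* at day 10 there were 0 *Car12* UMIs, against 46.9 CPM in the others, and the ratio's upper bound was -1.05 on the log2 scale.

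*Car8* did not follow *Snx22*, a sorting nexin, within this class. It had 116 CPM in the cells with *Snx22* and 184 CPM in those without at day 10 (log2 -0.67; -1.41 to -0.02), and 231 against 172 CPM at day 14, where the interval held 0 (-0.54 to 1.24). In cells with *Chrdl2* it was 161 against 182 CPM at day 10 (-0.89 to 0.46) and 57.4 against 178 CPM at day 14 (log2 -1.63; -2.96 to -0.58). With *Ihh* the ratio was 0.03 (-0.38 to 0.41) at day 10 and -0.03 (-0.53 to 0.43) at day 14. With *Penk* it was lower at both days, by log2 values of -0.47 (-0.81 to -0.14) and -0.86 (-1.43 to -0.34). These splits rest on 26 to 306 cells with the companion gene and were not tested.

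UMIs of *Car8* and *Car12* were found together in part of the cells of the *Cnmd* class. At day 10, thinned to the same depth, *Car12* was detected in 11.2% of the 651 cells with *Car8* (8.89% to 13.9%) and in 6.78% of the 1916 cells without it (5.70% to 8.005%). At day 14 the shares were 8.28% (5.53% to 11.8%) and 6.79% (5.40% to 8.41%), with overlapping intervals. At day 7, 0 of the 10 cells with *Car8* and 7 of the 39 without it had *Car12*. For background, at the same 2000 UMIs *Car12* had a UMI in 0 of 61 cells of the *Rgs5* class at day 10, in 0.562% of them at day 14, and in 1.78% of the 169 *Ptprc*-positive cells of day 14 (0.368% to 5.10%). No background was subtracted, so UMIs of both genes in a cell do not show that the cell expressed both.

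Between days, *Car8* in the *Cnmd* class was higher at day 10 than at day 7 by a log2 ratio of 0.63 (0.38 to 0.90) and nearly level from day 10 to day 14 (0.10; 0.06 to 0.15). *Car12* was lower at day 10 than at day 7, with a log2 ratio of -1.19 (-1.47 to -0.89), as was *Car9* (-1.82; -2.43 to -1.14), and *Car5b* (-1.63; -2.43 to -0.69). From day 10 to day 14, *Car12* had -0.10 and *Car9* -0.37, and no member passed a 2-fold difference in either direction, where 2.17% of 14232 genes were 2-fold higher and 2.87% lower. Against day 10, day 7 had *Car3*, *Car5b*, *Car9*, and *Car12* at least 2-fold higher, where 9.11% of 13486 genes were, and 15.6% were at least 2-fold lower. The *Car3* value at day 7 rests on 2 UMIs (1.98 CPM against 0.867 CPM), and the log2 ratio of day 10 over day 7 had an interval of -3.13 to 1.90 that holds 0. *Car13* had 0 UMIs at day 7, which allows up to 2.96 CPM, above its 2.46 CPM at day 10, so no direction is given. The day 7 values come from 50 cells of a library in which most cells carried *Ptprc*, and in these 50 cells the neutrophil markers summed to 1920 CPM, against 1.43 and 30.9 CPM at the later days. The part of that material in the difference was not tested. In 1 library per day, time, animal, and library cannot be told apart.

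*Car3*, the cytosolic enzyme with low activity that is known from skeletal muscle and fat, marked the *Ifitm5* class. It had 442 CPM (411 to 475; 738 UMIs) at day 10 and 221 CPM (208 to 235; 1080 UMIs) at day 14. The 2 cells of the class at day 7 held 110 *Car3* UMIs, 107 of them in 1 cell. At day 10 the *Col10a1*, *Cnmd*, and *Aspn* classes had 1.73, 0.867, and 0.296 CPM, and at day 14 they had 1.39, 1.07, and 1.15 CPM. The *Rgs5* class had 0 UMIs at day 10 and 22 UMIs at day 14, all in 1 cell that also held 184 UMIs of *Bglap*, the osteocalcin gene. The log2 ratio over the other classes was 9.08 (8.69 to 9.49) at day 10 and 7.29 (7.01 to 7.59) at day 14. *Car3* was the 1 member at least 2-fold higher in the *Ifitm5* class, where 3.69% of genes were. *Car5b*, *Car8*, and *Car9* were at least 2-fold lower by their values, as were 16.3% of genes. At day 10 *Car5b* and *Car9* had 1 UMI each, and the intervals of their levels relative to the other classes reached 0.761-fold and 0.710-fold. Those other classes include the *Cnmd* class, where *Car8* and *Car9* led. *Car8* in the *Ifitm5* class, at 29.4 and 26.6 CPM, lay above the *Col10a1*, *Aspn*, and *Rgs5* classes at both days.

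Because *Car3* is a muscle and fat gene, markers of those tissues were set beside it. In the *Ifitm5* class, 2 of 6 muscle markers were detected at day 10 and 3 of 6 at day 14, with sums of 13.8 and 9.02 CPM, and *Ckm* and *Myh4* were at 0. Over the 5 classes the muscle sum lay between 2.44 and 13.8 CPM at day 10 and between 2.66 and 9.02 CPM at day 14, with the *Ifitm5* class highest at both days. Of 5 fat markers, 1 was detected at day 10 and 2 at day 14, with sums of 1.20 and 2.66 CPM. The fat sum was highest in the *Rgs5* class, at 372 and 506 CPM, where *Car3* was at 0 and 11.7 CPM. All of that sum was *Fabp4*. *Adipoq*, *Plin1*, *Cfd*, and *Cidec* had 0 UMIs there at both days, so the sum does not show fat cells in that class.

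Within the *Ifitm5* class *Car3* was uneven. It was found in 55 of 93 cells at day 10 and 204 of 318 cells at day 14, and 4 cells held 50% of its UMIs at day 10, against 23 cells at day 14. Cells with *Bglap* had 849 CPM and those without it 79.3 CPM at day 10 (44 and 49 cells), and 290 and 148 CPM at day 14 (166 and 152 cells). Splitting by *Dmp1*, a matrix gene of late osteoblasts and osteocytes, gave 411 against 460 CPM at day 10 and 210 against 229 CPM at day 14. Cells with *Postn*, the periostin gene, had less *Car3* than those without it, with 332 against 892 CPM at day 10 and 193 against 294 CPM at day 14. The lower level at day 14 than at day 10 amounted to a log2 ratio of -0.998 (-1.13 to -0.86), just under the 2-fold line. That interval covers counting error only and not the spread between cells. The 4 cells with 50% of the day 10 UMIs weigh on this ratio and on the day 10 splits, and the values without them were not computed. Of the 4 members compared between these days none passed it, where 2.92% of 9805 genes were at least 2-fold higher and 2.44% at least 2-fold lower.

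The *Ifitm5* class was also split by *Car12*. *Car3* had 252 CPM in the 10 cells with *Car12* and 467 CPM in the 83 cells without it at day 10, and 191 CPM in 32 cells against 226 CPM in 286 cells at day 14. *Car12* itself was 31.0 CPM in cells with *Ptprz1* and 5.45 CPM in cells without it at day 10, and 46.9 against 8.27 CPM at day 14. With and without *Dmp1* it was 31.0 against 13.3 CPM and 46.3 against 12.5 CPM, whereas *Bglap* made little difference, with 20.3 against 19.3 CPM and 23.5 against 28.3 CPM. With and without *Postn* it was 16.4 against 33.6 CPM at day 10 and 30.5 against 13.9 CPM at day 14, so that split turned between the days. *Car8* in the class was lower with *Dmp1*, at 3.26 against 44.5 CPM and 8.85 against 38.2 CPM. The 33 *Car12* UMIs at day 10 came from 10 cells, and the 126 UMIs at day 14 from 32 cells. These splits use whole cells without thinning, so a deeper cell was more likely to count as positive.

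A large part of the UMIs lay outside the classes. The remainder held 19.2% of the *Car8* UMIs at day 10 and 33.0% at day 14, 34.0% and 38.4% of the *Car12* UMIs, and 42.5% and 34.4% of the *Car3* UMIs. The remainder was also split by the level of the class marker below the threshold. *Car8* had 7.22 CPM in the remainder cells with 0 *Cnmd* UMIs, 27.2 CPM in those under 0.05 of the reference, and 114 CPM (109 to 119) in those at 0.05 and over at day 10, and 12.8, 24.7, and 112 CPM at day 14. *Car3* had 5.77, 8.39, and 177 CPM (159 to 197) in the same steps of *Ifitm5* at day 10, and 2.77, 8.96, and 132 CPM at day 14. At day 10, 225 of the 346 *Car3* UMIs of the last step were in 2 of its 118 cells, which lay at 0.215 and 0.245 of the reference, near the threshold of the class, and the other 116 cells had 63.4 CPM (52.6 to 75.7). In the step with 0 *Ifitm5* UMIs, 1 cell held 116 of 213 UMIs, and the rest had 2.63 CPM. *Car12* depended less on *Cnmd*, with 22.3, 21.6, and 46.9 CPM at day 10 and 12.1, 9.72, and 26.8 CPM at day 14. Its last step was level with the *Cnmd* class at day 10 (46.4 CPM) and below it at day 14 (43.3 CPM). *Car9* had 3.19, 3.77, and 8.47 CPM (7.10 to 10.0) at day 10, and 3.29, 2.72, and 5.11 CPM at day 14. The *Cnmd* class had 6.44 CPM (5.75 to 7.18) and 4.97 CPM, so *Car9* in the last step was not below the class.

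In the remainder of day 10, 3 cells held 50% of the *Car3* UMIs. A pair of these cells, with 132 and 93 *Car3* UMIs, had 1480 and 1018 *Bglap* UMIs and 13 and 14 *Ifitm5* UMIs. The other one, with 116 *Car3* UMIs, had 0 *Bglap* UMIs and 201 UMIs of *Acta1*, skeletal muscle actin. At day 7 the remainder had 35.8 CPM of *Car3*, and the 18 cells at 0.05 and over of the *Ifitm5* reference had 297 CPM (241 to 362).

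**Figure D4:**
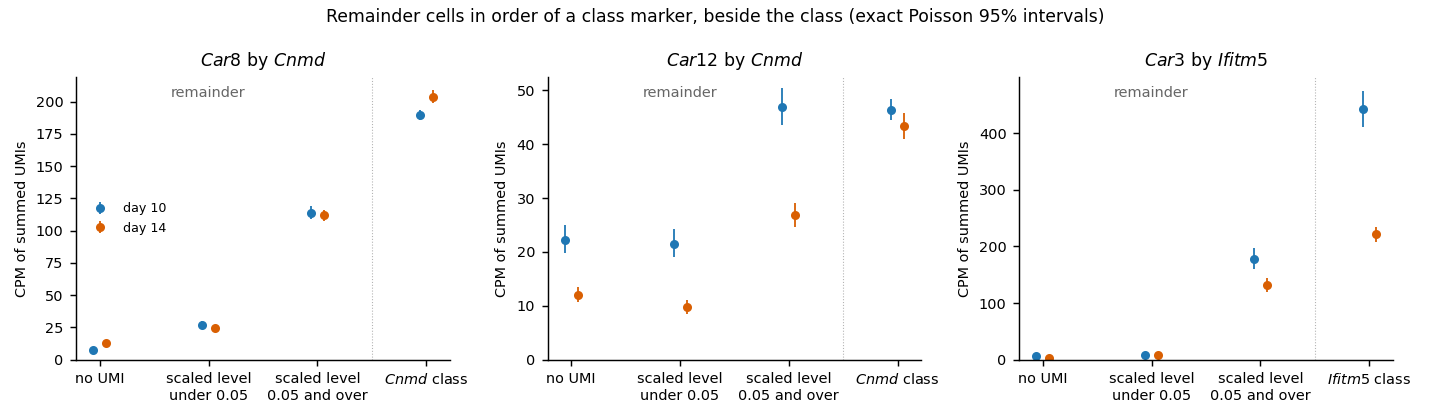
CPM of *Car8* and *Car12* by the level of *Cnmd*, and of *Car3* by the level of *Ifitm5* (vertical axes, scaled separately), in the remainder split into 3 steps of the scaled marker and, right of the dotted line, in the class itself; bars are exact Poisson 95% intervals. The remainder cells at 0.05 and over had 114 and 112 CPM of *Car8* and 177 and 132 CPM of *Car3*, between the lower steps and the class, and without 2 cells near the threshold the day 10 value of *Car3* was 63.4 CPM.

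The mitochondrial *Car5b* and the cytosolic *Car13* were low and broad. *Car5b* had 4.16 CPM in the *Cnmd* class, 5.35 CPM in the *Col10a1* class, and 5.11 CPM in the *Aspn* class at day 10, and 6.73, 5.95, and 4.998 CPM at day 14, so the intervals of these 3 classes overlapped at day 10, while at day 14 that of the *Cnmd* class (5.84 to 7.71) lay above that of the *Aspn* class (4.26 to 5.82). The *Ifitm5* class had 1 UMI (0.599 CPM) at day 10 and 8 UMIs (1.64 CPM) at day 14. *Car13* had 5.18 CPM (4.04 to 6.55) in the *Aspn* class and 2.46 CPM (2.04 to 2.94) in the *Cnmd* class at day 10, and 6.60 CPM (5.76 to 7.54) against 2.01 CPM (1.54 to 2.58) at day 14. The *Rgs5* class had 7.31 and 7.99 CPM, with wide intervals that covered the *Aspn* values. The *Ifitm5* class had 5.39 CPM (2.47 to 10.2) and 4.92 CPM (3.15 to 7.32), so its intervals overlapped those of the *Aspn* and *Rgs5* classes. *Car13* lies next to *Car1*, *Car3*, and *Car2* on chromosome 3. *Car4*, the membrane-anchored enzyme, was all but undetected, with 0 UMIs in every class at day 7 and day 10 and 2 UMIs in all at day 14. The 0 UMIs in the *Cnmd* class at day 10 allow up to 0.0605 CPM.

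*Car2* was a gene of the blood cells in these libraries. In the skeletal classes it had 0 to 9 UMIs each, and its highest value at day 10 and day 14 was 2.40 CPM (4 UMIs) in the *Ifitm5* class. The 451 day 7 erythroid barcodes had 1139 CPM (1107 to 1171; 4915 UMIs in 291 barcodes), which was 86.8% of all *Car2* UMIs of the library's classes. The 9 and 7 erythroid barcodes of day 10 and day 14 held 14 and 74 UMIs, or 665 CPM (364 to 1116) and 3188 CPM (2503 to 4002), with 70 of the 74 UMIs in 1 barcode, so the day 7 level is the one used. *Ptprc*-positive cells of day 7 had 8.90 CPM, so that the log2 ratio of the erythroid barcodes over them was 7.00 (6.86 to 7.14). The limits of 500 genes and 10% mitochondrial UMIs left 90 of the 451 barcodes, and the ratio was then higher, as given in the last section. With hemoglobin in the totals, *Car2* alone of 7 members compared was at least 2-fold higher in the erythroid barcodes, as were 3.94% of 13023 genes. On the same totals 81% of genes were at least 2-fold lower. *Car3* and *Car8* were among them by their values, with 2 UMIs each in the erythroid barcodes. *Car5b*, *Car9*, and *Car13* had 0 UMIs there, which allows up to 0.695 CPM against 0.437, 1.25, and 0.855 CPM in the *Ptprc*-positive cells, so no 2-fold difference is shown for them. Hemoglobin transcripts fill most of an erythroid barcode, and with hemoglobin genes left out of the total the log2 ratio of *Car2* was 9.63. On that scale barcodes with over 80% hemoglobin had 5.20 CPM of *Car3* (0.132 to 29.0) and 10.4 CPM of *Car8* (1.26 to 37.6). The *Ptprc*-positive cells had 1.93 and 0.934 CPM, and barcodes with 20% to 80% held 0 UMIs of both. *Car12* had 21.4 CPM (4.42 to 62.7) in barcodes with 5% to 20%, against 0.815 CPM. No direction is therefore given for *Car3*, *Car8*, and *Car12* in erythroid barcodes.

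The erythroid barcodes differed with their hemoglobin share. *Car2* had 1813 CPM (1608 to 2037) in 23 barcodes with 5% to 20% hemoglobin, 3432 CPM (3304 to 3563) in 95 barcodes with 20% to 80%, and 568 CPM (543 to 594) in 333 barcodes with over 80%. *Car1* had 1038, 265, and 1.19 CPM in the same bins. These totals include the hemoglobin UMIs. With hemoglobin genes left out of the totals, a setting added after seeing the data, *Car2* had 2022, 7504, and 9953 CPM in the same bins, so the order of the first and last bins turned. *Car1* had 1158, 580, and 20.8 CPM on that scale and was lowest in the last bin on both scales. The 23 barcodes of the first bin had a median of 1271 UMIs, and their *Col2a1*, a cartilage collagen, was at 11994 CPM (1872 UMIs in 6 barcodes) against 170 and 54.1 CPM in the other bins. The part of these cartilage transcripts in the *Car2* and *Car1* levels was not tested. *Car3*, *Car8*, and *Car12* together had 8 UMIs in these 451 barcodes.

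Among the *Ptprc*-positive cells of day 7, *Car2* was low in the neutrophil series, with 9.01 CPM in 62 cells high for *Mpo*, 2.65 CPM in 1602 cells high for *Camp*, and 2.88 CPM in 2587 cells high for *Cxcr2*. The 98 cells high for *Csf1r*, the receptor of monocytes and macrophages, held 0 UMIs, which allows up to 3.16 CPM. The 151 cells high for the B cell gene *Cd79a* had 52.6 CPM (39.4 to 68.8), and 18 cells high for the basophil protease gene *Mcpt8* had 105 CPM (69.8 to 152; 28 UMIs in 8 cells). Of these 18 cells, 1 also held 11 *Car1* UMIs, and 21.9% of the *Car2* UMIs of all *Ptprc*-positive cells were in cells with *Car1*. The 7 cells high for *Acp5*, the osteoclast phosphatase, held 4 *Car2* UMIs in 1 cell, so the level in osteoclasts could not be given. Other *Ptprc*-positive cells had 19.7 CPM.

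**Figure D5:**
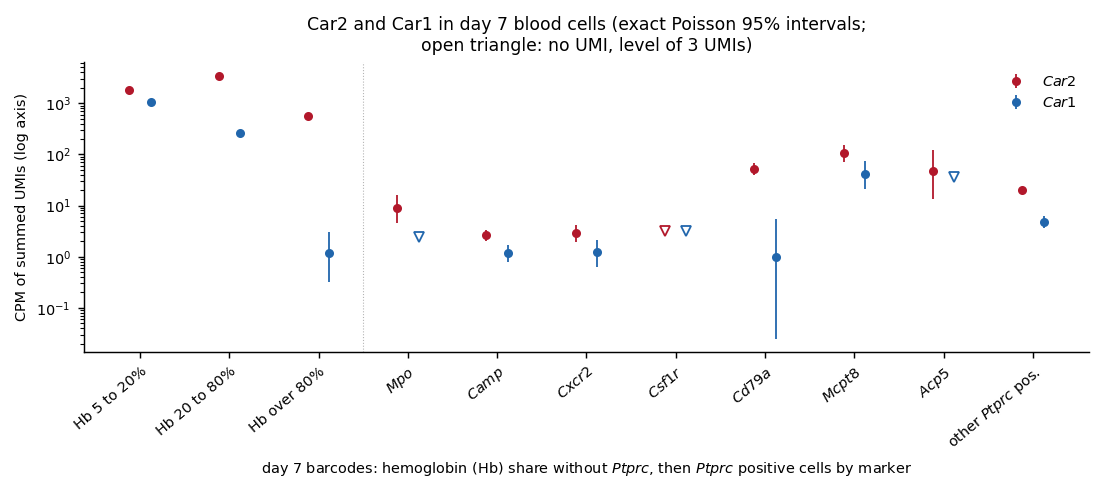
CPM of *Car2* and *Car1* (vertical axis, log scale) in day 7 erythroid barcodes by hemoglobin share and in *Ptprc*-positive cells by their highest marker (horizontal axis); bars are exact Poisson 95% intervals and open triangles mark the level of 3 UMIs where there were 0. The 3 erythroid bins lie at 1813, 3432, and 568 CPM of *Car2* with hemoglobin in the total, above all *Ptprc*-positive groups, and *Car1* is at 1.19 CPM in the last.

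Some *Car2* was also found in the remainder, at 84.0 CPM at day 7, 0.166 CPM at day 10, and 2.54 CPM at day 14. At day 7, 79.9% of these 298 UMIs came from 22 cells that also had *Car1*. At day 14, 132 of the 175 UMIs were in 1 cell with 128 *Car1* UMIs and 2.55% hemoglobin, under the limit that defined the erythroid barcodes.

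The rest of the gene family was uneven in level. Of 10 further family genes, 5 had enough UMIs to be compared. *Ptprz1* and *Ptprg* encode receptor phosphatases with an extracellular carbonic anhydrase-like domain. *Ptprz1* had 171 and 174 CPM in the *Ifitm5* class at day 10 and day 14, against 0.948 and 1.27 CPM in the *Cnmd* class, and *Ptprg* was highest in the *Rgs5* class at 37.8 and 33.0 CPM. *Car11*, another related protein without activity, had 4.88 and 4.26 CPM in the *Rgs5* class (4 and 8 UMIs), 2.22 and 3.85 CPM in the *Aspn* class, and 0.424 and 0.780 CPM in the *Cnmd* class. In the *Cnmd* class 0 of these 5 genes were 2-fold higher and 3 lower, beside 3.56% and 14.5% of all genes, and in the *Ifitm5* class *Ptprz1* was higher, beside 3.69%. *Car5a*, *Car11*, and *Ptprg* were higher in the *Aspn* class, beside 11.1%, where *Car6* had 0 and 1 UMIs. *Car6* was higher and *Car11* and *Ptprg* lower in the *Col10a1* class, beside 6.31% and 13.8%. *Car11* and *Ptprg* were higher in the *Rgs5* class, beside 11.7%, where *Car5a* and *Car6* had 0 UMIs. *Car5a* and *Car6* had 0 UMIs in the *Ifitm5* class at both days, and the level that 0 UMIs allow was above their level in the other classes, so no direction is given for them.

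Genes that work with carbonic anhydrases were read as lists. Of 7 bicarbonate carriers compared (of 10), none was 2-fold higher or lower in the *Cnmd* class at both days. *Slc26a6* was higher in the *Aspn* class, as were 11.1% of all genes. By their values *Slc4a8* and *Slc4a11* were higher and *Slc4a4* lower in the *Rgs5* class, beside 11.7% and 14.9% of all genes. *Slc4a11* was lower in the *Col10a1* class, beside 13.8%. The values in the *Rgs5* and *Col10a1* classes rest on 0 to 7 UMIs each. In the *Ifitm5* class *Slc4a8* had 2 UMIs in 1 cell at day 10 (1.20 CPM, 0.145 to 4.33) and 6 UMIs at day 14 (1.23 CPM, 0.451 to 2.68), against 0.574 and 0.496 CPM in the other classes, and both intervals hold the level of those classes. Of 7 genes of proton and lactate export, 0 were higher and 2 lower in the *Cnmd* class (*Slc9a3r1* and *Slc9a9*), beside 3.56% and 14.5% of all genes, with a median log2 ratio of 0.29 at day 10 against -0.30 over all genes. The lactate exporter gene *Slc16a3* had 66.8 CPM in the *Cnmd* class and 24.0 CPM in the *Ifitm5* class at day 10, and 61.0 and 26.2 CPM at day 14. Of 12 genes of the hypoxia response, *Pgk1*, a glycolytic enzyme, was higher and *Adm*, adrenomedullin, lower in the *Cnmd* class, beside 3.56% and 14.5% of all genes. The list's median log2 ratios there were 0.71 and 0.53 at day 10 and day 14 against -0.30 and -0.33 over all genes. In the *Ifitm5* class *Slc2a1*, *Pgk1*, and *Bnip3* were lower and none was higher, beside 16.3% and 3.69% of all genes, and the list's medians were -0.43 and -0.56 against -0.26 and -0.32 over all genes. In the *Aspn* class 6 of the 12 were lower and in the *Rgs5* class 4 were, beside 6.8% and 14.9% of all genes. In the *Col10a1* class *Vegfa* and *Adm* were higher and none was lower, beside 6.31% and 13.8% of all genes. The list's medians there were 0.17 and 0.37 against -0.04 and -0.18 over all genes. *Vegfa* had 116 and 56.9 CPM in the *Cnmd* class and 430 and 374 CPM in the *Col10a1* class, and *Adm* had 5.25 and 4.55 CPM against 51.1 and 51.3 CPM. Of 3 osteoclast acid secretion genes compared (of 4), *Ostm1* was lower in the *Cnmd* class, as were 14.5% of all genes. It was higher in the *Aspn* and *Rgs5* classes, as were 11.1% and 11.7% of all genes.

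Across the 11 sums of a class in a library, with at least 50 cells each, the genes most like each member were listed among 7496 genes by Pearson's r of log2(CPM + 10). For *Car8* they were *Cryzl2* (0.95), *Ppa1* (0.95), and *Pdrg1* (0.94), and for *Car12* they included *Ngef* (0.98) and *Sobp* (0.97). For *Car9* they were *Sft2d3* (0.98), *Spink5* (0.98), and *Slc14a1* (0.98), and for *Car3* they were *Ccdc194*, *Chst13*, and *Lipc* (all 0.99). Among the members, *Car8* and *Car12* had an r of 0.87, *Car9* and *Car12* 0.83, and *Car8* and *Car9* 0.73, while *Car3* had 0.01 with *Car8* and -0.28 with *Car9*. The 11 sums share 3 libraries and 5 class definitions, so these values are descriptions only.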

How the data were processed

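Callus cells of 3 libraries, 1 per day, were analyzed from the UMI counts per gene and barcode that the authors deposited, without normalization. The file header names Cell Ranger 3.1.0, the submitters' notes name 3.0 and the mm10 build, and the study's methods name another Cell Ranger release and a mouse genome version, M20, that is not the GENCODE version used here for coordinates. Kit labels also differ between label and methods. The study's limits were applied (500 to 5000 genes, at most 10% mitochondrial and 5% hemoglobin UMIs), erythroid barcodes excepted. No doublet caller was run, and 78 cells at day 10 and 53 at day 14 passed 2 class thresholds and went to the higher. Levels are CPM of summed UMIs with exact Poisson intervals, and ratios have conditional binomial and shares Clopper-Pearson intervals. A count of 0 was read as allowing up to 3 counts. Pairs of sums with at least 20 UMIs were compared. Thinning used 2000 UMIs per cell (seed 0), leaving out shallower cells. With 1 library per day no p-values were computed. The scripts were tested on simulated data. Python 3.11.15, numpy 2.4.6, scipy 1.17.1, pandas 2.3.3, and matplotlib 3.10.9 were used. The members, classes, lists, and rules were chosen with earlier results of these data known. Named genes were the 8 members, the other family genes, genes of the lists, and, for members with at least 20 CPM in a class, the 3 most similar genes, 1 of which is not reported here; cells that hold most of a gene's UMIs, and the genes named for them, were picked after their values were seen.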

Additional observations from a re-analysis of the deposited data

Results flagged for a closer look

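*Car12* in the *Ifitm5* class was below the other 4 classes at day 10 and above them at day 14, but the direction at day 14 rests on 1 cell. Its log2 ratio over them was -0.88 (-1.42 to -0.39) at day 10 and 0.31 (0.04 to 0.58) at day 14. At day 14, 32 of the 126 UMIs were in 1 of 318 cells, and without it, an alternative added after seeing the data, the ratio was -0.10 (-0.42 to 0.20). At day 10 the top cell held 12 of 33 UMIs, and without it the ratio was -1.51 (-2.21 to -0.90). The difference between the days was not tested, since each day had 1 library. The level in the class itself was 19.8 CPM at day 10 and 25.8 CPM at day 14, and the other classes together had 36.4 and 20.8 CPM. The *Cnmd* class, where *Car12* was highest, held 2586 cells at day 10 and 1469 at day 14, against 919 and 2308 in the *Aspn* class, and the part of this make-up was not tested.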

How the results depend on the processing

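The ratio of *Car2* in barcodes with over 80% hemoglobin over those with 5% to 20% turned from -1.67 to 2.30 on the log2 scale with hemoglobin genes left out of the totals, and that of *Car1* went from -9.77 to -5.80, both added after seeing the data. *Car12* in the *Ifitm5* class at day 14 turned from 0.31 to -0.10 without its top cell. In barcodes with over 80% hemoglobin, *Car3* and *Car8* had 1 and 2 UMIs. Their values also turned with hemoglobin genes left out, from below the *Ptprc*-positive level to above it. No further result changed direction under the alternatives run. For *Car3*, 8.19 on the log2 scale as the mean of both days, thinning gave 8.95 and leaving out the 5 cells of each class and library with the most UMIs of the gene, an alternative added after seeing the data, gave 9.01. For *Car8*, 4.67, a threshold of 0.15 gave 4.41 and of 0.5 gave 5.25, overlapping classes 4.30, no upper limit on genes 4.24, TMM scaling 4.96, thinning 4.94, and leaving out the top 5 cells 5.32. For *Car12*, 2.16, a threshold of 0.5 gave 1.72, TMM scaling 2.44, and leaving out the top 5 cells 2.54. For *Car2* in erythroid barcodes, 7.00, a limit of over 50% hemoglobin gave 6.67, totals without hemoglobin genes 9.63, thinning to 500 UMIs 7.51, and the limits of 500 genes and 10% mitochondrial UMIs 8.36, with 90 barcodes left. The 508 genes 2-fold higher in the *Cnmd* class became 968 without the filter on UMIs and 160 at 4-fold, and the 526 in the *Ifitm5* class became 205 at 4-fold. Leaving out the 1 or 2 cells with the most *Car3* UMIs moved 6 of 12 values in the remainder. Another 25 values stayed within the interval of the main value, or within 1.5 times for counts. No paired analysis was possible because each day had 1 library. Depth limits *Car4*, *Car5b*, *Car9*, and *Car13*, whose UMIs per class were few, and every day 7 skeletal class but *Cnmd*.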
